A study of Mus musculus with 9 samples.

Results

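The genes described here are 9 genes known as markers of regulatory T cells: Foxp3, Il2ra, Ikzf2, Ikzf4, Tnfrsf18, Gpr83, Nrp1, Il10 and Lrrc32. They were chosen by symbol, with no measured value in the rule, and all 9 were present among the 20926 genes of the table. Of these, 8 were among the 12366 genes tested, and Il10 lay below the minimum level for a test. Blood RNA was sequenced from 9 male DBA/1 mice, 7 weeks old by the labels, in 3 groups of 3. Ctrl mice were healthy and not irradiated. Arthritis was induced in CIA mice with collagen, which gives a mouse model of rheumatoid arthritis, by immunisation with chick type II collagen in Freund's adjuvant. CIA+THz mice were made arthritic in the same way and received sub-terahertz waves of 0.1 THz on the ankle joints for 30 min per day over 14 days, under isoflurane. Whether the Ctrl mice received adjuvant alone, and whether the Ctrl and CIA mice were anaesthetised, is not given in the sources used here, so adjuvant and collagen, and anaesthesia and irradiation, cannot be told apart in these comparisons. The model is limited to male mice of 1 strain, with 1 library per mouse.

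Regulatory T cells are CD4+ T cells that restrain other immune cells and keep the immune system from attacking the body's own tissue. Their identity rests on the transcription factor Foxp3, and they depend on interleukin-2, which they bind through a receptor whose alpha chain (CD25) they carry in large amounts. They act through surface proteins that capture cytokines or activate TGF-beta, and through secreted cytokines such as IL-10. Loss of Foxp3 causes fatal autoimmunity in mice and humans, and these cells are studied in arthritis because they can limit joint inflammation. Several of the 9 genes are not used by regulatory T cells alone. Il2ra and Tnfrsf18 are also switched on in other activated T cells. Nrp1 is made by endothelial cells, some myeloid cells and plasmacytoid dendritic cells, and Lrrc32 by platelets.

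The deposited unit was FPKM, a number of mapped fragments scaled to the length of the transcript and the size of the library, which allows levels of different genes to be compared per length. Each library was divided by 1 median-of-ratios factor, and the resulting levels are called rescaled FPKM. The labels name the tissue as blood leukocyte, but red-cell RNA was present in every library. The 6 genes of red-cell precursors analysed, led by Alas2, summed to between 47440 and 103600 rescaled FPKM. Their share of all FPKM was 14.4% to 16.7% in Ctrl, 16.4% to 16.8% in CIA and 11.5% to 14.1% in CIA+THz. Every CIA+THz library was thus below every library of the other groups. The 13 genes of the T cell list, from Cd3e to Cd4, summed to between 371.7 and 599.1, and none of them was at 0 in any group. Pairs of libraries within a group had Pearson correlations over the genes tested of 0.934 to 0.963, and pairs from different groups 0.923 to 0.957, with genes not being independent replicates. The number of genes above 0 was between 11816 and 12264 in Ctrl libraries, between 11801 and 12066 in CIA and between 12449 and 12807 in CIA+THz. The depth behind a value is unknown from FPKM, and the members were low, at or under 6.50 rescaled FPKM in every library, so that their counting error could not be given. In whole-blood RNA, fewer cells of a type and less RNA per cell cannot be told apart.

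Promoter windows of RefSeq, from 250 bases before to 50 bases after an annotated start site in GRCm38.p6, were at hand for 5 of the 9 members: Foxp3, with 2 annotated start sites, Il2ra, Tnfrsf18, Gpr83 and Nrp1. The windows of Foxp3 and Gpr83 are printed, because both genes passed the criterion in both comparisons with Ctrl. All 3 lie on the plus strand, and capitals mark the motif matches named after them.
Foxp3, upstream start site, chrX:7579426-7579725: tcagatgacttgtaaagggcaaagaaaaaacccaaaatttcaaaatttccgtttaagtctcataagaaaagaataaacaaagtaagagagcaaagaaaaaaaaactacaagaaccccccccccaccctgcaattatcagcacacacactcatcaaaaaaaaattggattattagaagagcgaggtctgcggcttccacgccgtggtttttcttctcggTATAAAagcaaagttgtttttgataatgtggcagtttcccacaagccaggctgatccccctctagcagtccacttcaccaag
Foxp3, downstream start site, chrX:7580233-7580532: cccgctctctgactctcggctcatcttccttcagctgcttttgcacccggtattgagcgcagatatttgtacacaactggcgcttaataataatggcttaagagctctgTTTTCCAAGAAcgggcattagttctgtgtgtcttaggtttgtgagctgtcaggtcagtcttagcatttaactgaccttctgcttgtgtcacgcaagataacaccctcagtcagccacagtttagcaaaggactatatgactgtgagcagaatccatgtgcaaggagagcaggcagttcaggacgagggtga
Gpr83, chr9:14859960-14860259: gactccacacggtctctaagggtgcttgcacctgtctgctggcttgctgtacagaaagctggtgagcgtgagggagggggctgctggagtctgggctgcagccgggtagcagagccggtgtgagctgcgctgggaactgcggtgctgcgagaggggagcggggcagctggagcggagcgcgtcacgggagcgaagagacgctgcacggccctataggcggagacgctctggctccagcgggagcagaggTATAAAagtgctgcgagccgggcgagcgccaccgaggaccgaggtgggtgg
The capitals in the upstream Foxp3 window are a TATAAA, the core of a TATA box, from -32 to -27, where the annotated start is 1 and there is no base 0. The downstream Foxp3 window holds TTCNNNGAA, a palindrome of the kind bound by STAT factors, from -139 to -131, overlapping TTTTCC, the reverse complement of the NFAT core GGAAAA, from -141 to -136. In the Gpr83 window the capitals are a TATAAA from -1 to 5, which spans the annotated start. The motifs were searched on both strands in 32851 windows of the same length. TATAAA was held by 13.6% of them, TTCNNNGAA by 8.3% and GGAAAA by 23.4%. The Runx core TGTGGT, held by 16.8% of windows, and the forkhead core TGTTTAC, held by 3.65%, had no match in the windows of these 5 members. The Tnfrsf18 window held TTCNNNGAA from -99 to -91 and GGAAAA on the minus strand from -196 to -191, and those of Il2ra and Nrp1 held none of the 5 motifs.

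The first comparison, CIA against Ctrl, gives the levels of these genes in arthritic and healthy mice. Foxp3, Gpr83 and Lrrc32 were higher in CIA past the criterion, which was an unadjusted p under 0.05 with an absolute log2 fold change above 0.67, and Nrp1 lay higher without passing it. All 4 were higher in every CIA library than in any Ctrl library. Il2ra and Ikzf2 overlapped between the groups, Tnfrsf18 lay lower without passing, and Ikzf4 was listed at 0 in 3 of the 6 libraries. Of the 8 members tested, 3 were called higher and 0 lower. Among all genes tested 9.04 percent were called, 4.79 percent higher and 4.25 percent lower. The groups did not overlap for 5 of the 8 members, 4 of them higher in CIA, against 23.5 percent of all genes, 11.8 percent higher. None of the 8 members had a Benjamini-Hochberg adjusted p under 0.05 by limma, against 0.154 percent of all genes, while 3 had an unadjusted p under 0.05, against 17.3 percent. Their median log2 fold change was 0.60, and that of all genes was -0.01.

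Foxp3, the transcription factor that defines regulatory T cells, lies on chromosome X of GRCm38, from 7573644 to 7595245 on the plus strand. Its rescaled FPKM was 3.12, 1.94 and 2.64 in the Ctrl libraries and 3.57, 5.30 and 5.50 in the CIA libraries. The lowest CIA library, replicate 1, lay close above the highest Ctrl library, and the other CIA libraries stood well above. The means were 2.57 ± 0.595 (SD, n = 3) and 4.79 ± 1.06, a ratio of 1.86. The log2 fold change on the scale of log2(rescaled FPKM + 0.1), used throughout, was 0.87 (SE 0.29), with an unadjusted p of 0.0195 and an adjusted p of 0.206 by limma. The call was lost without Ctrl replicate 2 (unadjusted p = 0.0581 by limma), without CIA replicate 2 (unadjusted p = 0.0666) or without CIA replicate 3 (unadjusted p = 0.0714), with fold changes of 0.69, 0.79 and 0.76. Foxp3 shares exon bases on the opposite strand with Ppp1r3f (266 bases), Gm36995 (373 bases) and Ccdc22 (590 bases), and 853 bases on its own strand with the noncoding Flicr. The strand setting of the counting is not given in the sources used here. Ccdc22 was 9.16, 4.57 and 7.67 rescaled FPKM in Ctrl and 10.2, 11.1 and 11.6 in CIA, so it too was higher in every CIA library, and Ppp1r3f was 1.37, 2.13 and 3.18 in Ctrl and 2.30, 4.6 and 2.72 in CIA, with overlap. Their part in the Foxp3 values was not tested.

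Lrrc32 (chromosome 7, 98489283 to 98502181, plus strand) encodes GARP, the surface protein that holds latent TGF-beta on activated regulatory T cells. Its rescaled FPKM was 3.90, 2.16 and 3.10 in Ctrl and 5.98, 6.50 and 5.65 in CIA. The CIA libraries lay close together and all stood above the Ctrl libraries by a wide margin. The means were 3.05 ± 0.867 (SD, n = 3) and 6.04 ± 0.429, a ratio of 1.98, and the log2 fold change was 1.00 (SE 0.26, unadjusted p = 0.00654 and adjusted p = 0.147 by limma). This call held when any 1 of the 6 libraries was left out. The platelet list, of interest because platelets also carry GARP, was higher in CIA for 6 of its 9 genes and lower for 3. With 0 called, its median log2 fold change was 0.09. Its sum was between 4207 and 5131 in Ctrl and between 4032 and 5035 in CIA, with none of its genes at 0. The part of platelets in the Lrrc32 values was not tested.

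Gpr83 (chromosome 9, 14860210 to 14870789, plus strand) encodes a receptor of the G protein-coupled family that is enriched in regulatory T cells. Its rescaled FPKM was 0.667, 2.20 and 1.05 in Ctrl and 2.42, 2.95 and 2.99 in CIA. Ctrl replicate 2 stood apart from the other Ctrl libraries and lay just under the lowest CIA library. The means were 1.31 ± 0.799 (SD, n = 3) and 2.79 ± 0.320, a ratio of 2.13, and the log2 fold change was 1.18 (SE 0.44, unadjusted p = 0.0316 and adjusted p = 0.241 by limma). The call was kept in only 1 of the 6 fits that left out a library, that without Ctrl replicate 2, at 1.61. In the other fits the fold change was between 0.82 and 1.28 and p was between 0.0603 and 0.0903 by limma.

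Nrp1 (chromosome 8, 128358604 to 128503363, plus strand) encodes neuropilin-1, a semaphorin and VEGF co-receptor found on regulatory T cells that arise in the thymus. It was 2.69, 1.60 and 1.69 rescaled FPKM in Ctrl and 4.78, 2.83 and 2.89 in CIA. The highest Ctrl library lay just under the lowest CIA library, so the groups did not overlap. The log2 fold change was 0.78 (SE 0.34, unadjusted p = 0.0555 and adjusted p = 0.30 by limma), with a 95% confidence interval from -0.02 to 1.58. It passed the criterion in 6 of 14 alternative fits, among them the fit without Ctrl replicate 1, at 1.00 (unadjusted p = 0.0301 by limma), and the fit with the replicate number as a block (unadjusted p = 0.0384).

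Il2ra (chromosome 2, 11642807 to 11693193, plus strand) encodes CD25, the alpha chain of the interleukin-2 receptor. It was 3.23, 2.34 and 1.63 rescaled FPKM in Ctrl and 3.99, 3.02 and 2.6 in CIA. The groups overlapped, and the log2 fold change was 0.43 (95% confidence interval -0.36 to 1.22, unadjusted p = 0.238 by limma). Tnfrsf18 (chromosome 4, 156026164 to 156028895, plus strand), which encodes the costimulatory receptor GITR, was 4.16, 4.41 and 5.24 in Ctrl and 3.15, 2.86 and 4.08 in CIA. Every CIA library lay below every Ctrl library, but the log2 fold change of -0.45 (SE 0.24) missed both limits of the criterion (unadjusted p = 0.0988 by limma). Of the exon bases of Tnfrsf18, 414 are shared with the antisense gene Gm16008.

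Ikzf2 (chromosome 1, 69531214 to 69687245, minus strand) and Ikzf4 (chromosome 10, 128630843 to 128645991, minus strand) encode Helios and Eos, zinc-finger factors of the Ikaros family that work with Foxp3. Ikzf2 was 2.42, 0.484 and 0.920 rescaled FPKM in Ctrl and 1.08, 0.653 and 1.05 in CIA. Ctrl replicate 1 was the highest of all 9 libraries and Ctrl replicate 2 the lowest, and the log2 fold change of -0.18 had a 95% confidence interval from -1.56 to 1.19. Ikzf4 was listed at 0.375, 0 and 2.44 in Ctrl and at 0, 0.701 and 0 in CIA. The highest value was that of 1 Ctrl library, and 3 of the 6 libraries were at 0. Its log2 fold change of -1.30 (95% confidence interval -4.44 to 1.83) depends on the pseudocount. Il10 (chromosome 1, 131019845 to 131024974, plus strand), the gene of the anti-inflammatory cytokine IL-10, was listed at 0 in 8 of the 9 libraries and at 0.206 in Ctrl replicate 3, and no fold change was computed for it. Il10, Ikzf4 and Ikzf2 were the lowest of the 9 members.

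**Figure D1:**
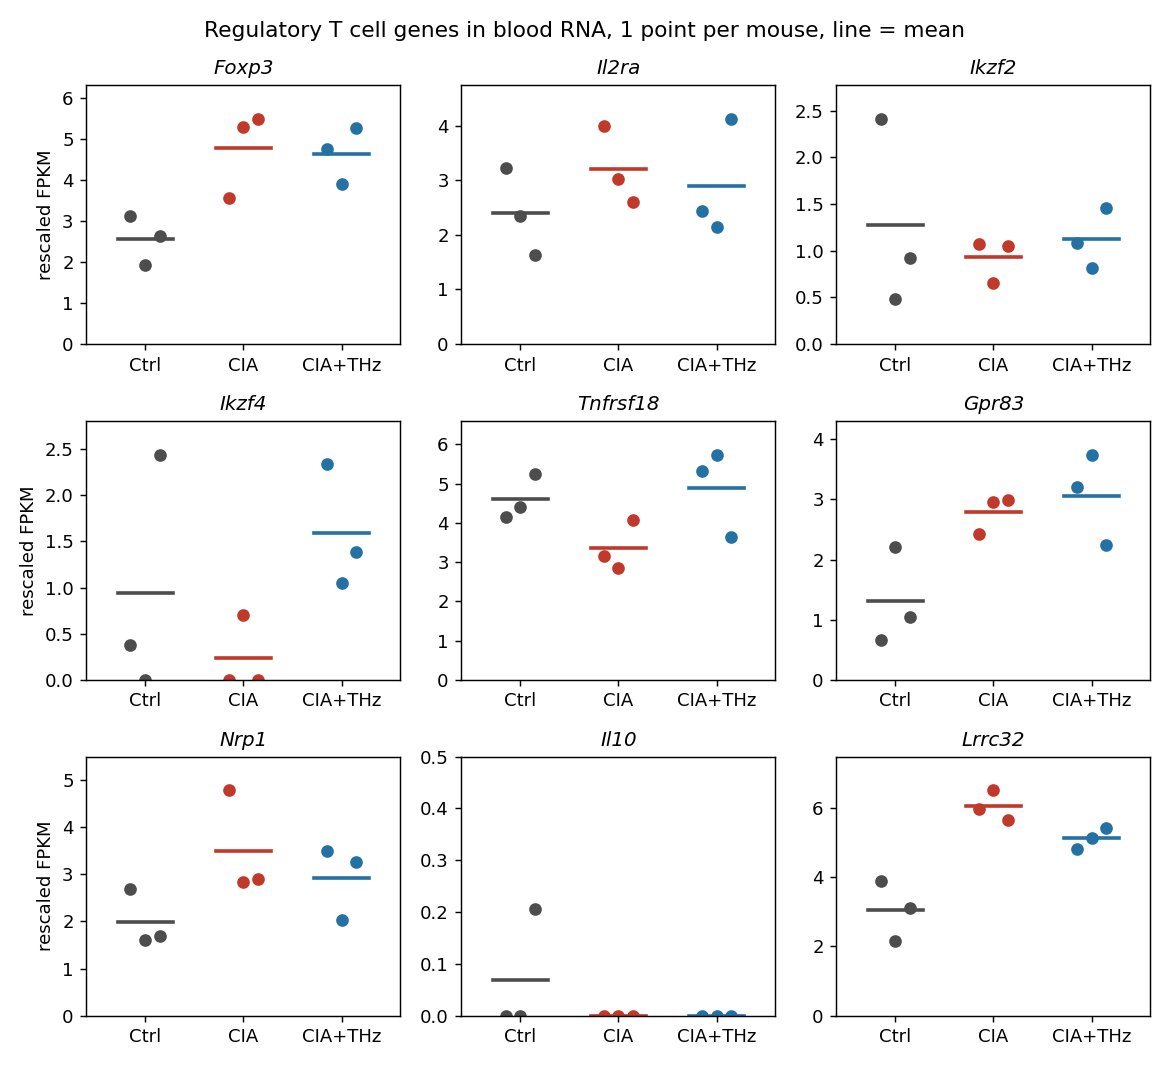
Level of each of the 9 regulatory T cell genes (vertical axis, rescaled FPKM, from 0) in Ctrl, CIA and CIA+THz blood, with 1 point per mouse and a line at the mean of 3. Foxp3, Gpr83 and Lrrc32 are higher in all CIA and CIA+THz libraries than in any Ctrl library, for Gpr83 by a narrow margin. Il10 is at 0 in all but 1 library.

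Other blood cells also differed between these groups. The T cell list was lower in CIA for 13 of its 13 genes, with 0 called and a median log2 fold change of -0.30, and its sum was between 438.2 and 517.7 rescaled FPKM in Ctrl and between 371.7 and 418.5 in CIA. Foxp3, Gpr83, Lrrc32 and Nrp1 thus lay higher in libraries in which T cell RNA lay lower. The monocyte list was higher for 12 of its 12 genes, with 4 called, and its sum was between 588.1 and 627.5 in Ctrl and between 869.5 and 967.9 in CIA, with no gene at 0. The list of plasmacytoid dendritic cells, which carry Nrp1, summed to between 99.9 and 140.5 in Ctrl and between 144.7 and 204.7 in CIA. Of its 9 tested genes, 4 were higher and 5 lower, with a median log2 fold change of -0.03. Its gene of highest level was Ly6d, at 72.35 ± 13.56 (SD, n = 3) in Ctrl and 122.5 ± 32.2 in CIA. In that list Ly6d, which B cells also use, was called higher and Ccr9 lower, Klk1 was at 0 in every library, and Siglech, the gene most particular to these cells, was 0.799 ± 0.721 (SD, n = 3) in Ctrl and 0.281 ± 0.306 in CIA.

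The NK cell list was lower in CIA for 7 of its 7 tested genes, with 4 called, and summed to between 141.9 and 183.7 rescaled FPKM in Ctrl and between 50.25 and 114.2 in CIA, with Klra4 at 0 throughout. The B cell list was higher for 8 of 10 genes, with Blk called, and summed to between 432.8 and 534.9 in Ctrl and between 507.2 and 641.3 in CIA. Of 12 neutrophil genes, 3 were called higher and 1 lower, with overlapping sums of 12440 to 21010 in Ctrl and 14600 to 19150 in CIA. Camp and Ltf, granule genes of immature neutrophils, had log2 fold changes of 4.86 and 4.08, with an adjusted p of 0.0361 for both by limma. The list of red-cell precursors was lower for 5 of 6 genes, with Klf1 called. Its sums overlapped, at 69090 to 103600 in Ctrl and 87130 to 97840 in CIA. The part of these cell types in the member values was not tested.

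The second comparison, CIA+THz against CIA, asks whether the levels differed between irradiated and non-irradiated arthritic mice. Ikzf4 was higher in CIA+THz past the criterion, and none of the other 7 members tested passed it in either direction. Foxp3 and Gpr83 differed by -0.03 and 0.11 on the log2 scale, less than their standard errors. Of the 8 members, 1 was called higher and 0 lower, where 4.54 percent of all genes were called, 2.94 percent higher and 1.6 percent lower. The groups did not overlap for 2 members, Ikzf4 as the higher and Lrrc32 as the lower, against 19.6 percent of all genes, 9.38 percent higher. No member had an adjusted p under 0.05 by limma, and 1 had an unadjusted p under 0.05, against 13.2 percent of all genes. Over all genes too, 0 had an adjusted p under 0.05. The members had a median log2 fold change of 0.04, and all genes one of 0.03.

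Ikzf4 was listed at 0, 0.701 and 0 in the CIA libraries and at 2.34, 1.04 and 1.39 rescaled FPKM in the CIA+THz libraries. Every CIA+THz library lay above every CIA library, although Ctrl replicate 3, at 2.44, was higher than all of them. The log2 fold change was 3.01 (SE 0.87, unadjusted p = 0.0109 and adjusted p = 0.264 by limma). Because 2 of the 3 CIA libraries were at 0, its size followed the pseudocount, from 1.09 with a pseudocount of 1 to 5.19 with 0.01. The gene was not tested with a minimum mean of 1. The CIA+THz libraries also had more genes above 0 than the CIA libraries, and the part of that difference in the zeros of Ikzf4 was not tested.

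Foxp3 was 4.76, 3.91 and 5.28 rescaled FPKM in CIA+THz, within the range of the CIA libraries, with a mean of 4.65 ± 0.693 (SD, n = 3). The log2 fold change of -0.03 had a 95% confidence interval from -0.57 to 0.52, and its sign turned with the FPKM as deposited, at 0.24. Lrrc32 was 4.80, 5.12 and 5.43 in CIA+THz, below every CIA library, with a mean of 5.12 ± 0.311. Its log2 fold change of -0.24 (SE 0.15, unadjusted p = 0.158 by limma) did not pass and became 0.04 with the FPKM as deposited. Gpr83 was 3.20, 3.75 and 2.23, which overlapped with CIA, and its interval ran from -0.50 to 0.71.

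Tnfrsf18 was 5.33, 5.74 and 3.63 rescaled FPKM in CIA+THz. Replicates 1 and 2 lay above every CIA library, replicate 3 lay among them, and the log2 fold change was 0.52 (SE 0.25, unadjusted p = 0.0748 by limma). It passed without CIA+THz replicate 3, at 0.72 (unadjusted p = 0.0256 by limma), and with the FPKM as deposited, at 0.79. Il2ra was 2.44, 2.15 and 4.13 in CIA+THz, with replicate 3 the highest of all 9 libraries. Nrp1 was 3.50, 2.04 and 3.25, and Ikzf2 was 1.08, 0.820 and 1.46, each overlapping with CIA. The log2 fold changes of Il2ra, Nrp1 and Ikzf2 were -0.17, -0.24 and 0.25, and those of Il2ra and Nrp1 turned to 0.10 and 0.03 with the FPKM as deposited. Rescaling lowered the median of all genes by 0.27 in this comparison and by 0.29 in CIA+THz against Ctrl, relative to the FPKM as deposited. With the FPKM as deposited, 1133 genes were called higher and 66 lower in place of 363 and 198.

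All 13 genes of the T cell list lay higher in CIA+THz, with a median log2 fold change of 0.32, and its sum was between 444.2 and 599.1 rescaled FPKM in CIA+THz. Cd5, a receptor that dampens T cell signalling, was the 1 gene of the list that was called, at 0.79 (unadjusted p = 0.00692 and adjusted p = 0.239 by limma). The neutrophil list was lower for 12 of its 12 genes, with 5 called, and its sum was between 10710 and 12140 in CIA+THz, below every CIA library. With the FPKM as deposited, 2 of these 12 genes were higher. All 7 tested genes of the NK cell list were higher, with 2 called, and the list summed to between 92.94 and 146.5, overlapping with CIA. The B cell list was higher for 8 of 10 genes, with 0 called, and summed to between 589.3 and 760.5. The platelet list was lower for 8 of 9 genes, with 0 called, and summed to between 3359 and 4063. The monocyte list was higher for 5 of 12 genes and lower for 7 (8 were higher with the FPKM as deposited), with Ms4a6d called lower, and summed to between 723.5 and 785. The plasmacytoid dendritic cell list had 0 of 9 tested genes called and summed to between 153.4 and 179.1. The list of red-cell precursors was lower for 4 of 6 genes, with 0 called, while 5 were higher with the FPKM as deposited. It summed to between 47440 and 65440, below every CIA library. The part of these cell types in the member values was not tested.

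The comparison of CIA+THz with Ctrl shares the Ctrl libraries with the first comparison and the CIA+THz libraries with the second, so it is not independent of either. Foxp3, Gpr83 and Lrrc32 were again the members called, each higher in all 3 CIA+THz libraries than in any Ctrl library. For Gpr83 the margin was narrow, with the lowest CIA+THz library at 2.23 and the highest Ctrl library at 2.20 rescaled FPKM. Ccdc22, which overlaps Foxp3, was 10.4, 13.1 and 9.39 rescaled FPKM in CIA+THz, also above every Ctrl library. The Foxp3 log2 fold change was 0.85 (SE 0.25, unadjusted p = 0.0110 and adjusted p = 0.163 by limma). That of Gpr83 was 1.29 (SE 0.44, unadjusted p = 0.0218 and adjusted p = 0.204 by limma). For Lrrc32 it was 0.76 (SE 0.25, unadjusted p = 0.0176 and adjusted p = 0.187 by limma). Of the 8 members, 3 were called higher and 0 lower, where 7.88 percent of all genes were called, 4.64 percent higher and 3.24 percent lower. The groups did not overlap for 3 members, all higher, against 24 percent of all genes, 11.9 percent higher. None had an adjusted p under 0.05 by limma, against 0.105 percent of all genes, and 3 had an unadjusted p under 0.05, against 18.1 percent. The median of the members was 0.65, and that of all genes was 0.04. With the FPKM as deposited, 1600 genes were called higher and 120 lower in place of 574 and 401.

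These calls rested in part on single libraries. Without Ctrl replicate 2, Foxp3 and Lrrc32 were under the fold limit, at 0.666 and 0.54, and Gpr83 stayed past it, at 1.72. Lrrc32 also missed the p limit without CIA+THz replicate 2 (unadjusted p = 0.0518 by limma) or replicate 3 (unadjusted p = 0.0601). Gpr83 was called in 2 of the 6 fits that left out a library, those without Ctrl replicate 2 or CIA+THz replicate 3. With a pseudocount of 1, Foxp3 and Lrrc32 were at 0.669 and 0.62, under the fold limit. Ikzf4 passed without Ctrl replicate 3, at 2.88 (unadjusted p = 0.0104 by limma), while with all libraries its value was 1.70 (unadjusted p = 0.154). Il2ra, Ikzf2, Tnfrsf18 and Nrp1 were at 0.26, 0.06, 0.07 and 0.53, none of them called, and Nrp1 passed with the FPKM as deposited, at 0.83. The cell type lists differed here too. The monocyte list had 10 of 12 genes higher, with 7 called, and the B cell list 10 of 10, with 3 called. The T cell list had 8 of 13 genes higher, or 13 with the FPKM as deposited, and 0 called. All 7 tested NK cell genes were lower, with 1 called, although 2 were higher with the FPKM as deposited. Of the neutrophil genes 3 were called higher and 3 lower. The list of red-cell precursors was lower for 6 of 6 genes, with 3 called, although 1 was higher with the FPKM as deposited. The part of these cell types in the member values was not tested.

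**Figure D2:**
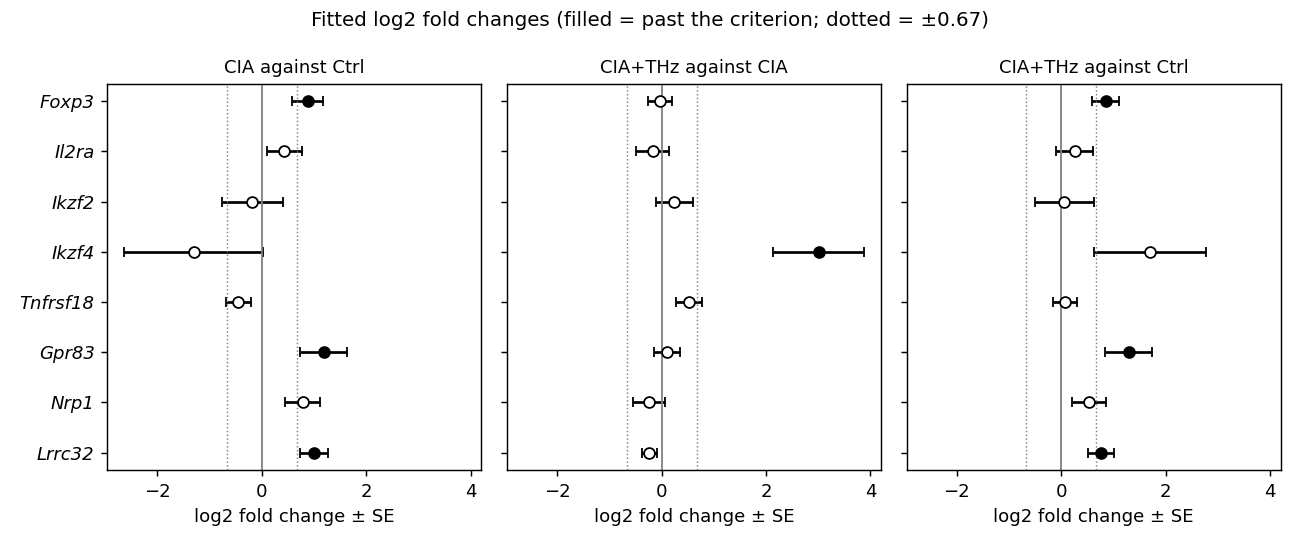
Fitted log2 fold change (horizontal axis) of the 8 members tested in each of the 3 comparisons, with bars of 1 SE from limma. Filled points passed the criterion and dotted lines mark 0.67 on either side of 0. Foxp3, Gpr83 and Lrrc32 are filled in both comparisons with Ctrl, and Ikzf4 is the 1 filled point in CIA+THz against CIA.

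In the test across the 3 groups, Foxp3, Gpr83 and Lrrc32 had an unadjusted p under 0.05 by limma's moderated F-test, where 21.3 percent of all genes had one. In that order, limma's unadjusted p was 0.0104, 0.0135 and 0.00335, and the adjusted p was 0.124, 0.136 and 0.0785. No member had an adjusted p under 0.05, against 2.53 percent of all genes. Ordered by mean, Lrrc32 was highest in CIA, then CIA+THz, then Ctrl. Foxp3 had the same order, with CIA and CIA+THz overlapping. Gpr83 was highest in CIA+THz, again overlapping with CIA. The summed level of all 9 members was between 15.15 and 20.56 rescaled FPKM in Ctrl, between 24.77 and 24.96 in CIA and between 24.56 and 27.46 in CIA+THz.

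**Figure D3:**
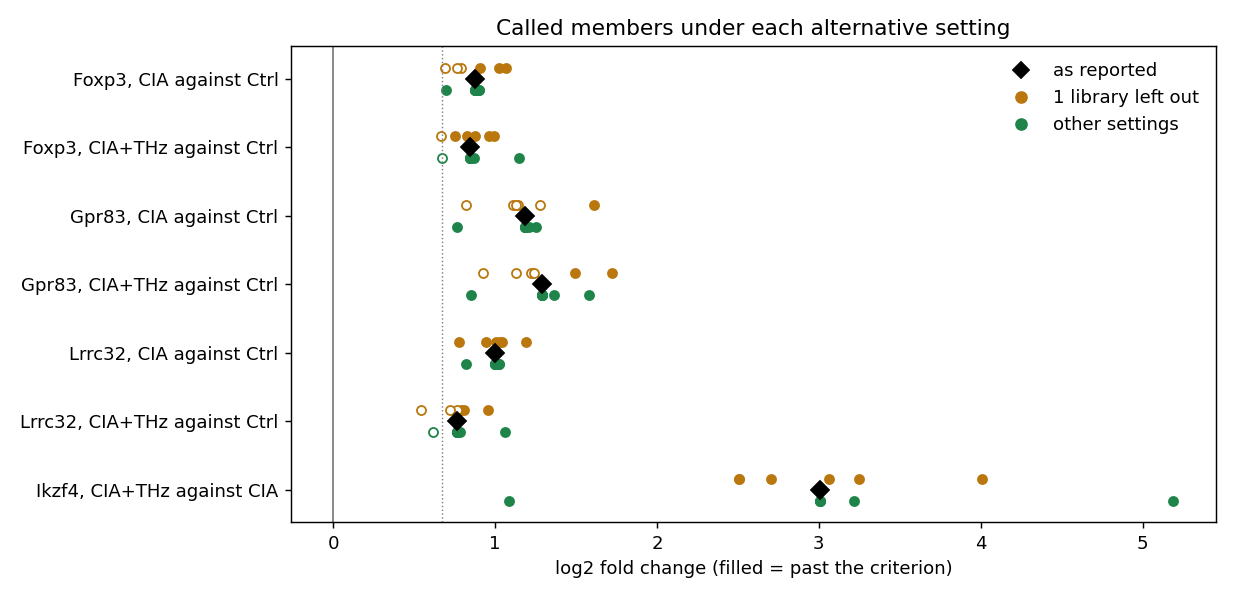
Log2 fold change (horizontal axis) of each called member and comparison as reported (diamonds), with 1 library left out (orange) and under other settings apart from the adjusted p (green); filled circles passed the criterion and the dotted line marks 0.67. Lrrc32 in CIA against Ctrl and Ikzf4 in CIA+THz against CIA stay filled throughout, while most Gpr83 values with 1 library left out are open.

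Since T cell RNA itself differed between the groups, each member was also expressed as its log2 level minus the mean log2 level of the 13 T cell genes in the same library. On this relative scale the Ctrl mean of Foxp3 was -3.66 ± 0.47 (SD, n = 3), the CIA mean was -2.47 ± 0.40 and the CIA+THz mean was -2.83 ± 0.33. CIA lay above Ctrl by 1.19, with no overlap, and CIA+THz lay above Ctrl by 0.83, also with no overlap. The exact two-sided permutation test gave p = 0.1 for both, which is the smallest p that 3 against 3 allows, and 0.3 after adjustment over the 24 tests of 8 members in 3 pairs of groups. CIA+THz lay below CIA by 0.36 for Foxp3, and these groups overlapped (exact permutation p = 0.2).

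Relative to the T cell genes, Gpr83, Nrp1 and Lrrc32 were also higher in all CIA libraries than in any Ctrl library, by 1.5, 1.09 and 1.31 on the log2 scale, each with an exact permutation p of 0.1. The T cell genes themselves lay lower in CIA, so the subtraction moved all genes upward: over the 12366 genes tested the median relative difference was 0.31, and that of the 8 members was 0.92. Of the 8 members 4 did not overlap, all higher, where 29.3 percent of all genes did not, 26.7 percent higher and 2.61 percent lower. Tnfrsf18, which did not overlap between CIA and Ctrl as a level, overlapped here, with a difference of -0.14. In CIA+THz against CIA, Lrrc32 was lower in every library, with group means of -2.69 ± 0.28 and -2.12 ± 0.10 (SD, n = 3), and Ikzf4 was higher, each with an exact permutation p of 0.1. Here the median over all genes was -0.31 and that of the members -0.29, and 27.9 percent of all genes did not overlap, 1.66 percent higher and 26.3 percent lower. The Lrrc32 difference was -0.57. Gpr83 did not overlap in CIA+THz against Ctrl, at 1.27, whereas Lrrc32 overlapped, at 0.74 (exact permutation p = 0.2). In that comparison 2 of the 8 members did not overlap, where 15 percent of all genes did not, 8.43 percent higher and 6.53 percent lower, and the medians were 0.63 over the members and 0.02 over all genes. The design could not reach a p under 0.05 for any of the 24 tests.

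**Figure D4:**
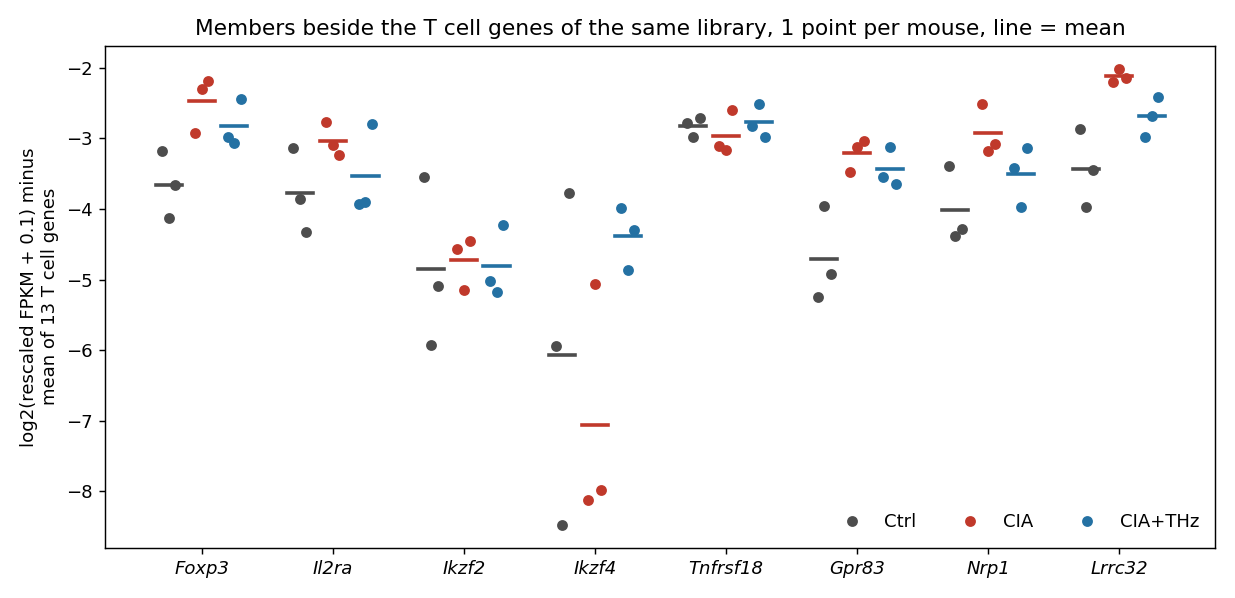
Each tested member as log2(rescaled FPKM + 0.1) minus the mean of 13 T cell genes in the same library (vertical axis), with 1 point per mouse and a line at the mean of 3. Foxp3 and Gpr83 are lower in every Ctrl library than in any CIA or CIA+THz library, and the CIA+THz mean of Lrrc32 lies between those of Ctrl and CIA.

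Other genes of the same cells and pathways were described as fixed lists, chosen with earlier results of these data known. Of 16 further surface and effector genes of regulatory T cells, 15 were tested, with 0 called higher and 2 lower in CIA against Ctrl. Those were Tnfrsf4, the receptor OX40, at 1.62 ± 0.211 (SD, n = 3) in Ctrl and 0.498 ± 0.330 in CIA, and Nt5e, the adenosine-producing enzyme CD73, at 12.4 ± 4.21 and 6.77 ± 0.982. Their log2 fold changes were -1.70 and -0.82, with unadjusted p of 0.0149 and 0.0151 and adjusted p of 0.191 for both by limma. In CIA+THz against CIA, 1 was called higher and 0 lower. This was Izumo1r, the folate receptor 4 of regulatory T cells, at 3.74, 14.0 and 6.23 rescaled FPKM in the CIA libraries and 20.2, 15.7 and 12.3 in the irradiated ones. Its log2 fold change was 1.18 (unadjusted p = 0.0387 and adjusted p = 0.351 by limma). CIA replicate 2 lay among the CIA+THz libraries. None of the 15 was called in CIA+THz against Ctrl. The list had medians of 0.02, -0.11 and -0.03 in the 3 comparisons, and its genes of highest level, Fgl2 and Entpd1, which myeloid and other blood cells also make, were 269 ± 82.5 and 85.2 ± 4.31 in Ctrl. Ctla4, an inhibitory receptor central to these cells, had a mean of 2.99 ± 1.02 in Ctrl, against 1.78 ± 0.505 in CIA and 1.75 ± 0.590 with irradiation, and was not called. In CIA against Ctrl, 8 of the 15 tested genes were higher and 7 lower. Tnfrsf1b was under the fold limit there, at 0.50 (unadjusted p = 0.00158 and adjusted p = 0.0861 by limma). Across the 3 groups its adjusted p was 0.0483 by limma's moderated F-test. Ctla4 and Tnfrsf1b were named after their values were seen.

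Of 18 regulators and partners of Foxp3, all tested, 1 was called higher and 1 lower in CIA against Ctrl. Nr4a1, a factor induced by antigen receptor signalling that is also high in monocytes and stands in the monocyte list as well, had a mean of 3.54 ± 1.26 (SD, n = 3) in Ctrl, against 6.22 ± 1.61 in CIA and 8.13 ± 0.886 with irradiation. Its log2 fold change was 0.82 in CIA and 1.23 in CIA+THz, each against Ctrl, with unadjusted p of 0.0420 and 0.00256 and adjusted p of 0.270 and 0.120 by limma. Runx1, which binds Foxp3 and its gene, was lower in CIA than in Ctrl by a log2 fold change of -0.74 (unadjusted p = 0.0392 and adjusted p = 0.263 by limma), at 7.47 ± 3.08 against 11.9 ± 1.43. In CIA+THz against CIA, Batf, a factor of effector regulatory T cells and other lymphocytes, was the 1 gene called, lower by a log2 fold change of -0.68 (unadjusted p = 0.0362 and adjusted p = 0.346 by limma). Nr4a1 was the 1 gene of the list called in CIA+THz against Ctrl. Batf was 10.8 ± 1.27 in CIA and 6.90 ± 2.27 in CIA+THz. The genes of highest level, Ets1 and Satb1, were not called. Ets1 had a mean of 92.8 ± 19.2 in Ctrl, against 74.3 ± 3.70 in CIA and 104 ± 6.45 with irradiation. Its log2 fold change in CIA+THz against CIA was 0.49, under the fold limit (unadjusted p = 0.000893 and adjusted p = 0.189 by limma). The mean of Satb1 was 63.0 ± 5.83 in Ctrl, against 40.2 ± 3.69 in CIA and 53.8 ± 1.5 with irradiation. Its log2 fold changes were -0.65 and 0.42 in the first and second comparisons, under the fold limit. The unadjusted p was 0.00108 and 0.00339, and the adjusted p 0.0745 and 0.21, by limma. Across the 3 groups its adjusted p was 0.0333 by limma's moderated F-test. The medians of the list were -0.10, 0.20 and 0.03 in the 3 comparisons.

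The pathways of single members gave no call in any of the 3 comparisons, and their medians are given in the order CIA against Ctrl, CIA+THz against CIA, CIA+THz against Ctrl. Of 9 genes of the IL-2 receptor axis, through which Il2ra acts, 8 were tested, with median log2 fold changes of 0.16, -0.00474 and 0.14. Il2 itself was listed at 0 in all libraries, and Il2rg, the common gamma chain, and the kinase Jak1 were highest, at 211 ± 6.94 and 146 ± 12.5 (SD, n = 3) in Ctrl. Of the IL-10 receptor axis all 7 genes were tested, with medians of 0.31, -0.22 and -0.01. Its highest genes, the signalling inhibitor Socs3 and the transcription factor Stat3, were 73.2 ± 5.41 and 57.2 ± 3.06 in Ctrl. In CIA against Ctrl, 4 of its genes were higher and 3 lower. Il10ra, named after its values were seen, was just under the fold limit there, at 0.66 (unadjusted p = 0.00204 and adjusted p = 0.0936 by limma). The receptor pathway was thus measured well above 0, while Il10 itself was not.

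Of 9 genes of TGF-beta activation and its receptors, the system in which GARP acts, 8 were tested, with medians of -0.12, -0.23 and -0.04. Itgb8, an integrin chain that frees TGF-beta from GARP, was listed at 0 in all libraries, and the receptor gene Tgfbr2 and Nrros, a relative of Lrrc32 in myeloid cells, were highest, the former at 150 ± 14.8 (SD, n = 3) in Ctrl. In CIA against Ctrl, 3 of the tested genes were higher and 5 lower. Tgfb1, named after its values were seen, was under the fold limit there, at 0.62 (unadjusted p = 0.00078 and adjusted p = 0.068 by limma). Across the 3 groups its adjusted p was 0.0466 by limma's moderated F-test. Of 9 partners and ligands of neuropilins, 6 were tested, with medians of -0.41, -0.25 and -0.58. Sema4a, a semaphorin that binds Nrp1, and Plxna4, a plexin co-receptor, were highest, at 55.5 ± 1.72 and 11.6 ± 2.25 in Ctrl.

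The other Ikaros factors, Ikzf1, Ikzf3 and Ikzf5, had medians of -0.25, 0.57 and 0.15, with all 3 genes lower in CIA than in Ctrl and all 3 higher in CIA+THz than in CIA, but none called. Ikzf1 and Ikzf3, which are broadly used in lymphocytes, were 62.0 ± 1.36 and 12.5 ± 2.26 rescaled FPKM (SD, n = 3) in Ctrl, far above Ikzf2 and Ikzf4. Of 5 genes of the GITR ligand and its signalling, 4 were tested, with medians of 0.14, -0.03 and -0.04. The ligand gene Tnfsf18 was listed at 0 in all libraries, and the adaptors Traf2 and Traf5 were highest, at 6.29 ± 1.59 and 5.72 ± 1.14 in Ctrl.

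The genes whose levels followed Foxp3 most closely over the 9 libraries, among 9747 genes whose mean rescaled FPKM reached 1, were Commd4, Eme2, Eps8, Nudt22 and Cox15. Their Pearson correlations with Foxp3 on the log2 scale were 0.950, 0.949, 0.948, 0.947 and 0.945. None of the 5 is among the lists of regulatory T cell genes. The 9 libraries share the 3 group means, so these values describe likeness over the libraries and were not tested. Among the 3 members called against Ctrl, deviations from the group means did not all run together. Those of Foxp3 and Lrrc32 correlated at 0.64, of Foxp3 and Gpr83 at -0.61, and of Gpr83 and Lrrc32 at -0.90. These correlations over 9 libraries were not tested either.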

How the data were processed

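RNA from the blood of 9 mice was sequenced (paired-end, Illumina HiSeq), and the authors deposited 1 FPKM value per gene and library. The submitters' processing notes name bcl2fastq 2.0, HISAT2, StringTie, DESeq2 and build mm10, without role or order; annotation, strand setting and filters are not given in the sources used here. Groups came from the labels. Each library is another mouse.

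FPKM columns were divided by median-of-ratios factors over 10312 genes above 0 in all 9 libraries (0.847 to 1.24). Genes whose mean rescaled FPKM reached 0.1 were tested on log2(rescaled FPKM + 0.1) with limma 3.58.1 (lmFit, eBayes with trend) in R 4.3.3, each pair of groups on its 6 libraries. The criterion was the study's, an unadjusted p under 0.05 with an absolute log2 fold change above 0.67, and an unadjusted p under 0.05 across the 3 groups. Benjamini-Hochberg adjustment was over all 12366 genes tested. Members relative to the T cell list were compared by exact two-sided permutation tests. The values used were FPKM and not read counts, so no count test was run, and depth is unknown. Gene coordinates are those of GENCODE M21 and promoters those of RefSeq, both matched by symbol.

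The members and lists were chosen with earlier results of these data known. All members were named, and of each pathway list the genes called and the 2 of highest mean level. Ctla4, Tnfrsf1b, Il10ra and Tgfb1 were named after their values were seen. Lists of cell type markers are given mainly by counts and sums. For Foxp3, the 5 genes most like it are given. Of the erythroid list, 6 of 7 genes were analysed. In simulated data for CIA against Ctrl, 200 of 200 genes changed 4-fold among 12373 were recovered, with 358 unchanged genes called. The changed genes were drawn from those whose mean rescaled FPKM was at least 1. Depth was assumed, and every gene was given the same length and dispersion. Recovery of smaller changes or of lower genes was not simulated. The alternatives were the FPKM as deposited, pseudocounts of 1 and 0.01, no filter or a minimum mean of 1, no trend, all 3 groups in 1 fit, a replicate block, each library left out, the adjusted p, and Cd3e, Cd3d and Cd3g as the T cell level.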

Additional observations from a re-analysis of the deposited data

How the results depend on the processing

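With the Benjamini-Hochberg adjusted p, the genes past the threshold by limma went from 1118 to 19 for CIA against Ctrl, from 561 to 0 for CIA+THz against CIA (1634 at an unadjusted p under 0.05), from 975 to 13 for CIA+THz against Ctrl and from 2629 to 313 across the groups, and no member was called. With all 3 groups in 1 fit, Lrrc32 in CIA against Ctrl had an adjusted p of 0.0417 by limma, at 1.00. No other member had an adjusted p under 0.05 in any alternative fit of a pair of groups. With the FPKM as deposited, CIA+THz against CIA gave 1199 and CIA+THz against Ctrl 1720 genes. A pseudocount of 1 gave 283 in CIA+THz against CIA. Leaving out 1 library gave between 966 and 1261 genes for CIA against Ctrl, between 484 and 745 for CIA+THz against CIA and between 724 and 1487 in CIA+THz against Ctrl, the highest without Ctrl replicate 3. In CIA+THz against CIA, the log2 fold change of Foxp3 turned to 0.24, that of Il2ra to 0.10, that of Nrp1 to 0.0254 and that of Lrrc32 to 0.0371 with the FPKM as deposited. With 1 library left out, it ran there from -0.22 to 0.0899 for Foxp3, from -0.45 to 0.00896 for Il2ra and from -0.0507 to 0.31 for Gpr83. In the comparison of CIA with Ctrl, Ikzf2 ran from -0.67 to 0.38. For CIA+THz against Ctrl, Ikzf2 was -0.0197 with a pseudocount of 1 and ran from -0.42 to 0.63, Il2ra from -0.0165 to 0.49 and Tnfrsf18 from -0.0566 to 0.27 with 1 library left out. None of these members was called in these comparisons. The causes were not tested. The count of members that did not overlap relative to the T cell genes was 8 of 24 and between 7 and 11 in the alternatives, for which the share over all genes (29.3, 27.9 and 15 percent in the 3 comparisons as reported) was not recomputed. The replicate numbers did not pair the libraries: deviations of same-numbered libraries from their group means correlated between -0.0517 and 0.0309. With the number as a replicate block, 1073, 506 and 967 genes were called in the 3 comparisons and 2399 across the groups, and Nrp1 in CIA against Ctrl was the 1 member whose call changed. The unknown depth limits what can be said of Ikzf4, Il10 and the other low genes.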
